A study of Drosophila melanogaster with 18 samples.

Results

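The genes described here are genes of Drosophila melanogaster listed under a CG number whose transcript level was at least 8-fold lower in control white prepupae than in wandering control larvae. A gene entry was taken when it had at least 10 FPKM (sequenced fragments per kilobase of transcript, corrected for library size) in w1118 wandering larvae and when its FPKM + 1 was at least 8 times that of w1118 prepupae. Entries on chromosome 4 were not considered, and entries at least 1.5 times as high in the Nxt1 trans-heterozygotes as in w1118 at all 3 stages (again on FPKM + 1) were left out. The rule gave 104 entries of 14542 in all, and of 7120 CG entries off chromosome 4. Before that last clause 116 entries passed, 4.13% of the 2812 CG entries with at least 10 FPKM in w1118 wandering larvae, where 3.63% of all single-symbol entries at that level declined as far. The 104 stand for 103 genes, because CG30031 was listed in 2 entries, at a locus that 5 entries share. The genes were thus chosen by the w1118 values of wandering larvae and prepupae and by the genotype ratios, so the w1118 decline is given as a description only, and the level in Nxt1 animals is what was followed.

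Whole animals were sequenced in 6 groups of 3 samples each, 18 samples in all. The Nxt1 DG05102 / Nxt1 Z2-0488 trans-heterozygotes, whose strain is labelled yw, were collected as wandering larvae, as stationary larvae and as white prepupae, and w1118 animals, a white-eyed laboratory strain, were collected at the same 3 stages. Stages were read from behaviour and from dyed food: wandering larvae had blue guts, stationary larvae had clear or faintly blue guts, and prepupae had a white case. The strain background differs between the genotypes, so allele and background cannot be told apart. Nxt1 is a cofactor of the receptor that exports mRNA from the nucleus. The deposited tables hold 1 pooled FPKM per genotype and stage, so no spread between replicates can be given and the depth of the samples is unknown. Levels are those pooled FPKM, a standard error after a log2 fold change was derived from the authors' test statistic, and a gene is called when the authors' q (adjusted p) was at most 0.05. In whole animals fewer cells of a type and less RNA per cell cannot be told apart.

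At the end of the last larval instar the fly stops feeding, leaves the food, empties its gut and forms a puparium, under control of pulses of the steroid hormone ecdysone. Larval tissues such as the midgut, the fat body, the salivary glands and the larval epidermis switch off their feeding-stage programmes before they are dismantled or remodelled. Secreted digestive proteases, gut phosphatases, salivary glue proteins and larval cuticle proteins are classical products of that larval programme.

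In stationary larvae many of these genes were higher in Nxt1 animals than in w1118, while in prepupae most were low in both genotypes, though not silent. The median over the 104 entries was 64.3, 37.9 and 2.43 FPKM in Nxt1 wandering larvae, stationary larvae and prepupae, against 74.6, 16.1 and 2.15 FPKM in w1118. Levels of different stages come from tables that the authors scaled separately. Over 8934 expressed genes the median ratio of each group to w1118 wandering larvae differed from 1 by at most 0.14 on the log2 scale. The number of entries with at least 10 FPKM was 96, 82 and 21 in Nxt1 animals across the 3 stages, against 104, 60 and 21 in w1118. The highest w1118 level in prepupae was 36.2 FPKM (CG34291), no entry had 100 FPKM or more in prepupae of either genotype, and 4 were listed at 0 in Nxt1 prepupae, against 6 in w1118 prepupae.

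**Figure D1:**
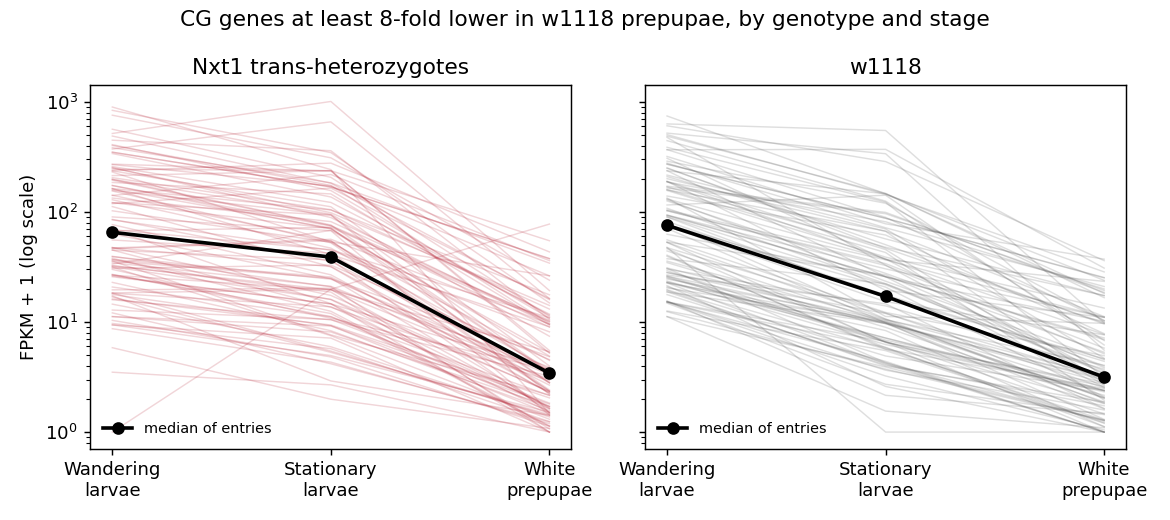
Pooled FPKM + 1 (log scale) of each of the 104 entries (thin lines) at the 3 stages, with the median of the entries (black), for Nxt1 trans-heterozygotes (left) and w1118 (right). The median line of Nxt1 animals stays high in stationary larvae (37.9 FPKM, against 16.1 FPKM in w1118) and meets that of w1118 in prepupae (2.43 and 2.15 FPKM).

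The comparison of the genotypes within stationary larvae does not depend on scaling between stages. Of 102 entries tested there, 36 were called higher in Nxt1 animals (35.3%), where 4.70% of all gene entries tested were called higher. A further 3 were called lower, where 13.2% of all entries were. Among the other CG entries with at least 10 FPKM in w1118 wandering larvae, 4.50% were called higher and 21.5% lower in stationary larvae, 1.49% and 17.4% in wandering larvae and 4.78% and 20.6% in prepupae. The median log2 ratio of FPKM + 1 was 0.90 over the 104 entries and -0.15 over those other CG entries. Nxt1 animals were above w1118 in 91 of the 104 entries, and at least 2-fold above (on FPKM + 1) in 47. The called rises ranged from 1.58-fold to 9.22-fold, with a median of 3.08-fold.

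In wandering larvae and prepupae fewer of the entries were called. In wandering larvae 14 of 103 tested entries were called higher in Nxt1 animals, where 2.29% of all entries were, and 8 were called lower, where 9.49% of all entries were. The median log2 ratio of FPKM + 1 was -0.01, and Nxt1 animals were above w1118 in 52 of 104 entries. In prepupae 3 of 70 tested entries were called higher, where 4.03% of all entries were, and 3 were called lower, where 12.9% were. The clause on raised entries bears on these counts: with the 12 entries it removed, 25 of 115 tested were higher in wandering larvae (21.7%) and 11 of 82 in prepupae (13.4%), with 8 and 3 lower. Over the 104 entries the median log2 ratio in prepupae was -0.04, Nxt1 animals were above w1118 in 44 of 104 entries, and 34 entries were not tested by the authors, most of them with under 2 FPKM in both genotypes. All 14 entries called higher in Nxt1 wandering larvae were also called higher in stationary larvae. The other 22 called higher in stationary larvae were not called in wandering larvae. Because the rule picked high w1118 values in wandering larvae and low ones in prepupae, the difference in genotype effect between stages was not tested.

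**Figure D2:**
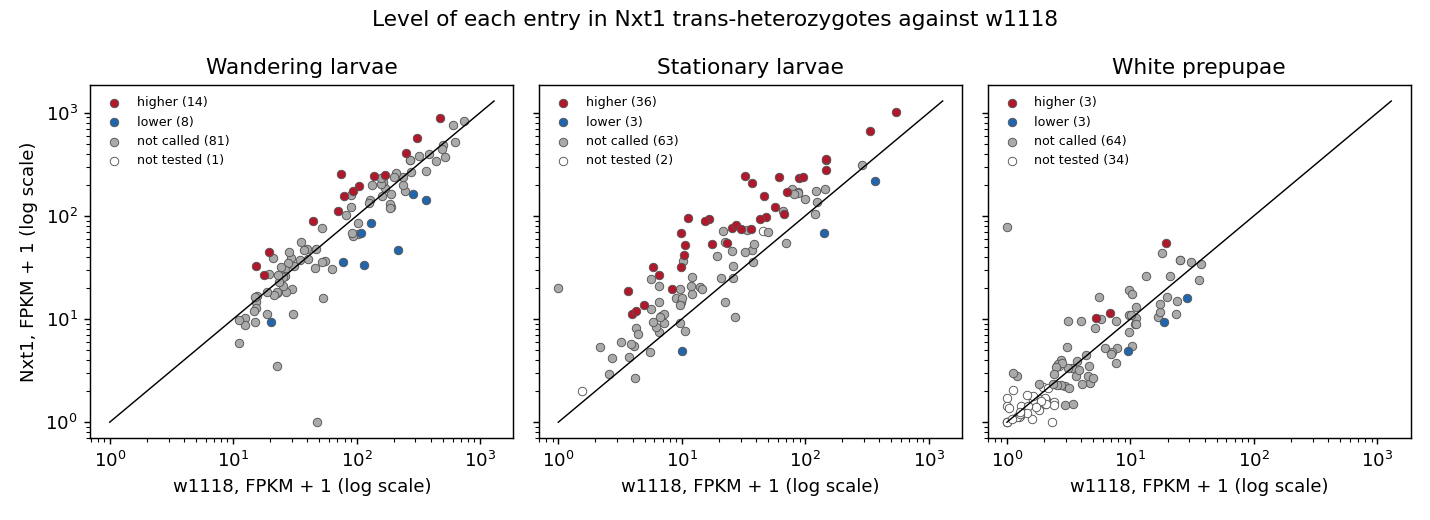
FPKM + 1 of each entry in Nxt1 trans-heterozygotes (vertical) against w1118 (horizontal), both on log scales, in wandering larvae, stationary larvae and prepupae, with the line of equality and colours for the authors' call. In stationary larvae most points lie above the line and 36 are called higher, against 14 in wandering larvae and 3 in prepupae.

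Stationary values entered the choice of genes only through the clause that left out entries raised at all 3 stages. That clause removed 12 of 116 entries, and without it the choice used no stationary value of either genotype. Over the 116 entries, 48 of 114 tested were called higher in Nxt1 stationary larvae (42.1%) and 3 lower, with a median log2 ratio of 1.02. Restricted to the 68 entries that share their locus with no other entry, 29 of 67 tested were called higher and 3 lower. The counts with the raised entries and those of unshared loci were added after the data were seen.

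CG32198 had the steepest decline. It had 896, 241 and 0.480 FPKM in Nxt1 wandering larvae, stationary larvae and prepupae, against 475, 31.8 and 1.96 FPKM in w1118. In the authors' deposited table its log2 fold change was 0.92 ± 0.21 in wandering larvae (q = 0.000342) and 2.92 ± 0.36 in stationary larvae (q = 4.55e-14). CG17105 showed the same shape, with 563, 205 and 10.2 FPKM in Nxt1 animals, against 306, 35.8 and 22.4 FPKM in w1118. Its log2 fold change in the authors' deposited table was 0.88 ± 0.23 in wandering larvae (q = 0.002) and 2.52 ± 0.36 in stationary larvae (q = 1.69e-10). Both genes were thus already higher in wandering Nxt1 larvae, and in prepupae neither was called.

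CG43117, named after its values were seen, had the largest called ratio in stationary larvae, 9.22-fold. It had 196, 94.3 and 6.42 FPKM in Nxt1 animals across the 3 stages, against 133, 10.2 and 8.73 FPKM in w1118. In the authors' deposited table its stationary log2 fold change was 3.20 ± 0.78 (q = 0.000417). In w1118 most of its decline was complete in stationary larvae, while in Nxt1 animals most of it came after that stage.

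**Figure D3:**
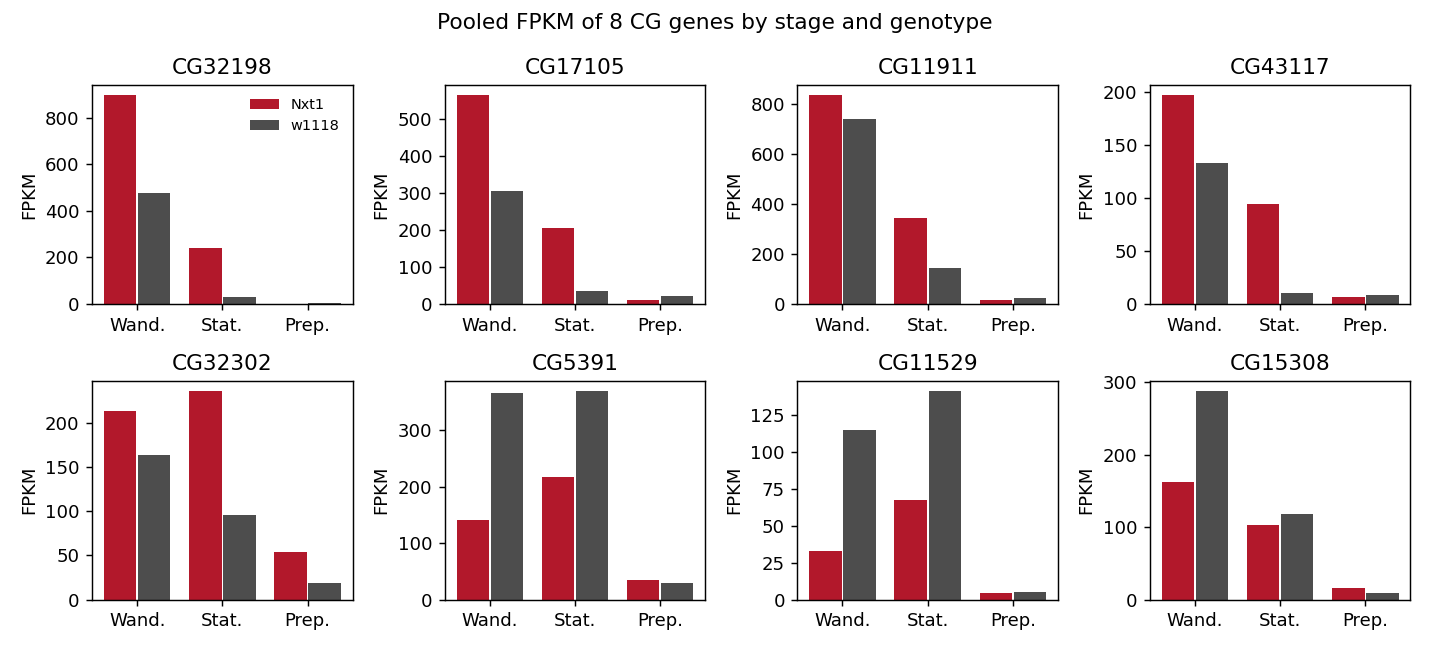
Pooled FPKM of 8 of the genes in wandering larvae, stationary larvae and prepupae (bars from 0, Nxt1 trans-heterozygotes left of w1118 at each stage; 1 pooled value per bar, so no error bars). In the top row Nxt1 stationary larvae exceed w1118, as in CG32198 (241 against 31.8 FPKM), while CG5391, CG11529 and CG15308 in the bottom row are lower in Nxt1 wandering larvae.

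The 10 entries with the highest w1118 level in wandering larvae were CG11911, CG15404, CG6933, CG31698, CG9682, CG14332, CG32198, CG13731, CG7587 and CG33333. CG15404 had 515, 1007 and 18.3 FPKM in Nxt1 animals, against 629, 548 and 8.82 FPKM in w1118. Its neighbour CG31698 had 371.5, 657 and 15.3 FPKM in Nxt1 animals, against 519, 337 and 4.55 FPKM in w1118. These neighbours on arm 2L peaked in stationary larvae in Nxt1 animals and in wandering larvae in w1118. The authors' deposited table gave stationary log2 fold changes of 0.88 ± 0.22 for CG15404 (q = 0.000537) and 0.96 ± 0.21 for CG31698 (q = 8.54e-05).

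CG6933, CG9682, CG13731 and CG7587 were not called in stationary larvae. CG6933 had 755, 309 and 22.97 FPKM in Nxt1 animals, against 605, 286 and 35.1 FPKM in w1118. CG7587, which RefSeq lists as Sgs5bis after the salivary glue gene Sgs5, had 401, 173 and 8.67 FPKM in Nxt1 animals, against 385, 122 and 2.12 FPKM in w1118. So among the most abundant of these genes, 6 were called higher in Nxt1 than in w1118 stationary larvae and 4 did not pass the test.

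Most of these genes remain without a name. RefSeq held all 103 genes, 14 of them now under another symbol, and 77 carried neither another symbol nor a family name. The groups below follow RefSeq symbols and synonyms. Serine proteases, secreted enzymes that cut proteins and that include the main digestive enzymes of the larval gut, gave 8 genes in 9 entries. Of these entries 4 were called higher in Nxt1 than in w1118 stationary larvae, 1 was called lower and 4 were not called. Of all 46 CG entries with such a name and at least 10 FPKM in w1118 wandering larvae, 11 were called higher and 5 lower in stationary larvae. CG11911 (SP103) had 836, 345 and 13.9 FPKM in Nxt1 animals, against 743, 145 and 22.9 FPKM in w1118. CG8299 (SP65) had 193, 74.1 and 9.34 FPKM in Nxt1 animals, against 103, 35.7 and 10.1 FPKM in w1118. CG17571 (SP83) had 141, 53.5 and 1.82 FPKM in Nxt1 animals, against 128, 22.5 and 3.55 FPKM in w1118. All 3 were higher in Nxt1 stationary larvae, as was CG31267, a protease homologue by its synonym, at 17.7 against 2.65 FPKM.

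CG11529 (SP84) went the other way. It had 32.6, 67.0 and 4.28 FPKM in Nxt1 animals, against 115, 141 and 5.18 FPKM in w1118. The authors' deposited table gave log2 fold changes of -1.81 ± 0.24 in wandering larvae (q = 6.58e-12) and -1.07 ± 0.21 in stationary larvae (q = 4.25e-06). CG10472 (SP78), CG30371 (SP80) and CG30031 (SP6), the last listed in 2 entries at 1 shared locus, were not called in stationary larvae. CG10472 had 128, 45.9 and 2.73 FPKM in Nxt1 animals, against 187, 36.3 and 6.69 FPKM in w1118. By value, Nxt1 stationary larvae were above w1118 in 8 of the 9 protease entries, all but CG11529. The same held in 29 of all 46 CG entries with such a name and at least 10 FPKM in w1118 wandering larvae.

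Alkaline phosphatases, which strip phosphate groups from their substrates, gave 5 genes, of 7 CG entries with such a name and at least 10 FPKM in w1118 wandering larvae. Alp7 (CG3292), Alp8 (CG3264) and Alp6 (CG1809) were called higher in Nxt1 stationary larvae and were the only ones of those 7 called there. Alp7 had 111, 30.8 and 1.25 FPKM in Nxt1 animals, against 69.7, 8.87 and 1.97 FPKM in w1118. Alp8 had 75.7, 25.8 and 1.27 FPKM in Nxt1 animals, against 51.9, 5.51 and 1.73 FPKM in w1118. Alp7 and Alp8 lie within 10 kb of each other on arm 2R and showed the same order of levels. Alp5 (CG10827) and Alp1 (CG5656) were not called there, and Alp1 was lower in wandering larvae, at 84.5 against 130.2 FPKM.

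The acyl-CoA binding proteins Acbp6 (CG15829) and Acbp3 (CG8628), which carry activated fatty acids in the cell, are neighbours on arm 3L. Acbp6 had 121, 92.4 and 2.51 FPKM in Nxt1 animals, against 88.7, 15.6 and 3.63 FPKM in w1118. In the authors' deposited table its stationary log2 fold change was 2.57 ± 0.49 (q = 2.90e-06). Acbp3 had 162, 40.1 and 8.04 FPKM in Nxt1 animals, against 188, 18.4 and 10.0 FPKM in w1118, and was not called. In stationary larvae Acbp6 was 5.93-fold higher in Nxt1 animals, with a wandering level that was not called.

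The 4 genes with Dro synonyms belong to the ecdysteroid kinase-like family, relatives of enzymes that add phosphate to ecdysteroids in other insects. CG10513 had 133, 80.7 and 9.12 FPKM in Nxt1 animals, against 125, 26.6 and 4.31 FPKM in w1118. CG13360 had 44.0, 12.6 and 1.93 FPKM in Nxt1 animals, against 18.7, 3.91 and 1.39 FPKM in w1118. Both were called higher in Nxt1 stationary larvae, CG13360 also in wandering larvae and CG10513 also in prepupae. CG6830 and CG10550 were called at no stage. Nxt1 stationary larvae were above w1118 in all 4. Of all 15 CG entries with a Dro synonym and at least 10 FPKM in w1118 wandering larvae, Nxt1 stationary larvae were above w1118 in 7, with 5 called higher and 3 lower.

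Gnmt (CG6188), glycine N-methyltransferase, which uses up the methyl donor S-adenosylmethionine, had the largest rise among the 14 entries called higher in wandering larvae. It had 252, 87.9 and 8.52 FPKM in Nxt1 animals, against 73.1, 14.3 and 6.65 FPKM in w1118. The authors' deposited table gave log2 fold changes of 1.79 ± 0.21 in wandering larvae and 2.62 ± 0.30 in stationary larvae, with q listed at 0 for both. Miox (CG6910), the oxygenase that opens the ring of myo-inositol, was the opposite. It had 67.7, 13.7 and 0.513 FPKM in Nxt1 animals, against 106.9, 21.3 and 2.45 FPKM in w1118, and was called lower in wandering larvae (log2 fold change -0.66 ± 0.21, q = 0.0144 in the authors' deposited table). Nxt1 values of Miox were below those of w1118 at all 3 stages.

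The gene kumpel (CG42235), a transporter of the SLC5 family by its synonym, was called at no stage. It had 62.1, 23.7 and 3.84 FPKM in Nxt1 animals, against 92.7, 24.8 and 6.16 FPKM in w1118. AANATL4 (CG18607), named for arylalkylamine N-acetyltransferases, had 15.9, 4.30 and 0.441 FPKM in Nxt1 animals, against 14.5, 1.16 and 0.479 FPKM in w1118, and was not called either. Of the genes with a current symbol and no family partner here, hiro (CG3344) was called higher in wandering and stationary larvae. It had 173, 73.5 and 8.0 FPKM in Nxt1 animals, against 92.6, 29.4 and 10.1 FPKM in w1118. Srg1 (CG13641) had 83.7, 43.8 and 7.14 FPKM in Nxt1 animals, against 102, 31.6 and 4.15 FPKM in w1118, and was not called.

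Of the 8 entries lower in Nxt1 wandering larvae, CG5391, CG11529 and CG2962 were also lower in stationary larvae. CG5391 had 140, 218 and 35.1 FPKM in Nxt1 animals, against 366, 369 and 29.9 FPKM in w1118. In the authors' deposited table its log2 fold change was -1.38 ± 0.21 in wandering larvae (q = 2.88e-09) and -0.76 ± 0.20 in stationary larvae (q = 0.00169). CG2962 had 8.42, 3.96 and 0.516 FPKM in Nxt1 animals, against 19.4, 8.995 and 1.06 FPKM in w1118. CG5391 and CG11529 were also the 2 entries that had not declined in w1118 between wandering and stationary larvae.

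CG34227 had the largest called deficit in wandering larvae. It had 45.4, 53.8 and 1.41 FPKM in Nxt1 animals, against 215, 69.1 and 3.68 FPKM in w1118, with a log2 fold change of -2.25 ± 0.30 in wandering larvae (q = 1.63e-11) in the authors' deposited table. CG15308, next to CG2962 on chromosome X, had 162, 103 and 16.7 FPKM in Nxt1 animals, against 288, 119 and 9.32 FPKM in w1118. CG13947 had 34.7, 24.0 and 0.651 FPKM in Nxt1 animals, against 76.05, 19.8 and 1.09 FPKM in w1118. All 3 were called lower in wandering larvae and were not called in stationary larvae.

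In prepupae the called genes were few. CG32302 had 213, 236 and 53.7 FPKM in Nxt1 animals, against 164, 95.4 and 18.3 FPKM in w1118. The authors' deposited table gave it log2 fold changes of 1.30 ± 0.21 in stationary larvae (q = 6.35e-09) and 1.55 ± 0.25 in prepupae (q = 1.38e-08). CG10513 was 2.12-fold and CG13731 1.82-fold higher in Nxt1 prepupae. CG13731 had 338, 136 and 10.5 FPKM in Nxt1 animals, against 443, 124 and 5.78 FPKM in w1118. CG9682, CG6296 and CG4362 were lower in Nxt1 prepupae, at 15.0 against 27.5, 3.90 against 8.58 and 8.36 against 17.6 FPKM.

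The highest ratios of FPKM + 1 in prepupae belonged to CG43645, CG7587, CG31698, CG32302, CG11672, CG34026, CG7606, CG17362, CG15404 and CG3348. Apart from CG43645 they lay between 1.96 and 3.09, and among the 10 only CG32302 was called. CG31698, with 15.3 against 4.55 FPKM, and CG7606, with 42.3 against 17.2 FPKM, were not. The lowest ratios, between 0.43 and 0.50, were those of CG13946, CG6910, CG17105, CG10472 and CG32198, none of them called in prepupae, where CG13946 was not tested. CG32198 and CG17105 thus ended below w1118 in value after standing above it in both larval stages.

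The decline came at different steps in the genotypes. Between wandering and stationary larvae the median fall of FPKM + 1 was 1.93-fold in Nxt1 animals and 3.68-fold in w1118. Between stationary larvae and prepupae it was 7.76-fold in Nxt1 animals and 4.40-fold in w1118. Over both steps together it was 16.1-fold in Nxt1 animals and 14.1-fold in w1118. The fall to the stationary stage was smaller in Nxt1 animals in 102 of 104 entries, the exceptions being CG6933 and CG3348. The fall after it was larger in Nxt1 animals in 83. Of all 6108 single-symbol entries with at least 10 FPKM in w1118 wandering larvae, these held in 2754 and 2793. Of each gene's whole log2 decline, the median share complete in stationary larvae was 24.4% in Nxt1 animals and 47.8% in w1118. The w1118 figures for wandering larvae and prepupae chose the genes, and the clause on raised entries used the values of both genotypes at all 3 stages. No replicate values exist to test the step sizes.

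**Figure D4:**
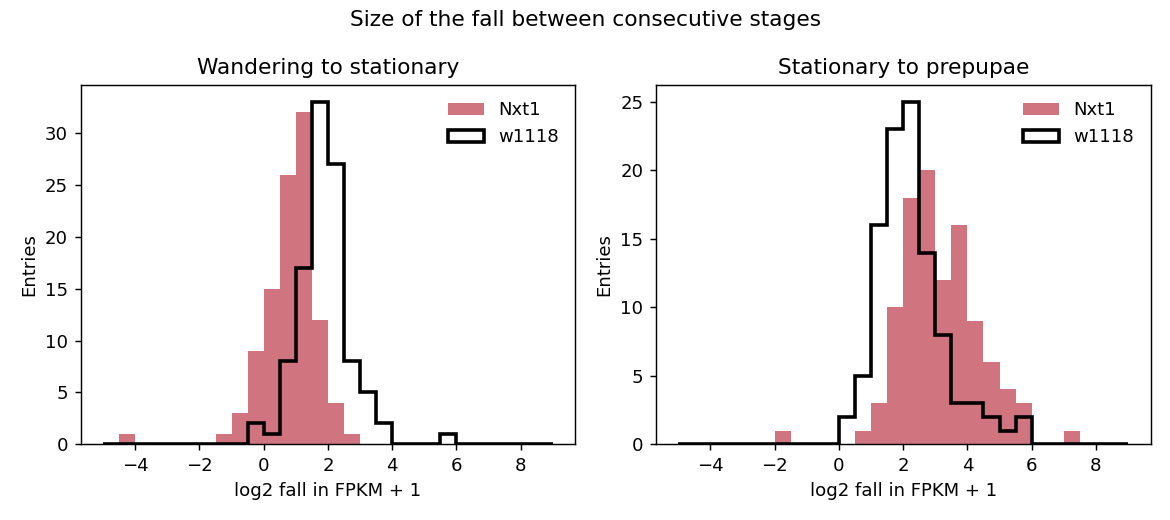
Histograms of the log2 fall in FPKM + 1 per entry between wandering and stationary larvae (left) and between stationary larvae and prepupae (right), for Nxt1 trans-heterozygotes (filled) and w1118 (outline). At the earlier step the Nxt1 falls lie lower (median 1.93-fold, against 3.68-fold in w1118), and at the later step they lie higher (median 7.76-fold, against 4.40-fold in w1118).

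No entry had fallen 8-fold in Nxt1 stationary larvae, against 8 entries in w1118 stationary larvae. Over all single-symbol entries with at least 10 FPKM in w1118 wandering larvae the shares were 0.0491% in Nxt1 animals and 0.573% in w1118. The 8 entries were CG32198, CG17105, CG32249, CG8628, CG43117, CG3264, CG43645 and CG32071. CG32249 had 197, 75.1 and 2.49 FPKM in Nxt1 animals, against 236, 24.7 and 1.56 FPKM in w1118, and was called 3.04-fold higher in Nxt1 stationary larvae. CG32071 had 16.3, 1.91 and 0.422 FPKM in Nxt1 animals, against 20.4, 1.60 and 0 FPKM in w1118. Its value in stationary larvae was low in both genotypes. In Nxt1 animals 14 entries had more FPKM in stationary than in wandering larvae, against 2 in w1118. Over all single-symbol entries at that level the median fall of FPKM + 1 was 0.940-fold in Nxt1 animals and 0.912-fold in w1118. The rule asked for a high wandering level in w1118 alone, which disfavours low early values there. That favours large falls and few rises by the stationary stage in w1118, so these contrasts between genotypes were not tested.

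Persistence into the Nxt1 prepupa was uncommon among the 104 entries, from which the clause on raised entries had already removed some that persisted. With those 12 kept, 6 of 116 fell less than 4-fold in Nxt1 animals, including CG34282 (3.87-fold) and CG6870 (3.98-fold). A fall of at least 8-fold from wandering larvae to prepupae was seen in 81 of 104 entries in Nxt1 animals, where 3.26% of all single-symbol entries with at least 10 FPKM in w1118 wandering larvae fell that far in Nxt1 animals. A further 19 entries fell between 4-fold and 8-fold. The remaining 4 fell less than 4-fold, as did 94.2% of all those entries, namely CG43645, CG42779, CG32302 and CG5391. The last pair fell 3.91-fold each, with 53.7 and 35.1 FPKM left in Nxt1 prepupae. CG42779 started low in Nxt1 wandering larvae, at 2.50 against 21.7 FPKM, and was listed at 0 in prepupae of both genotypes. None of its differences was called.

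CG43645 was listed at 0, 18.9 and 76.6 FPKM in Nxt1 animals, against 46.6, 0 and 0 FPKM in w1118. In the authors' deposited table none of these differences was called, with q of 0.803, 0.618 and 0.500 across the 3 stages. Its RefSeq synonym, mlncRNA36C10, is that of an mRNA-like noncoding RNA. It is the only entry with more FPKM in Nxt1 prepupae than in Nxt1 wandering larvae. Its listed locus is a short stretch of arm 2L, from 17486153 to 17486340.

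Among entries with at least 10 FPKM in Nxt1 wandering larvae, the smallest Nxt1 declines were those of CG32302, CG5391, CG34026, CG14406 and CG15423, from 3.91-fold to 5.04-fold. CG34026 had 46.0, 55.4 and 8.56 FPKM in Nxt1 animals, against 36.6, 21.3 and 2.98 FPKM in w1118. The largest were those of CG32198, CG5084, CG11300, CG4367 and CG13460, from 59.2-fold to 606-fold. CG4367 had 89.1, 66.5 and 0.428 FPKM in Nxt1 animals, against 43.2, 8.87 and 0.305 FPKM in w1118. CG11300 had 154, 51.4 and 1.34 FPKM in Nxt1 animals, against 77.9, 9.66 and 0.828 FPKM in w1118. CG5084 had 156, 93.0 and 1.19 FPKM in Nxt1 animals, against 159, 41.8 and 0.946 FPKM in w1118. CG4367, CG11300 and CG5084 thus combined a raised stationary level with a complete decline, and CG4367 was 7.50-fold higher in Nxt1 stationary larvae.

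The thresholds cut through a continuum. Just inside the level threshold lay CG7631 and CG7300 with 10.2 FPKM each and CG32191 with 11.4 FPKM in w1118 wandering larvae, and just outside lay CG12506, CG31741 and CG31266 with 9.62, 9.48 and 9.45 FPKM. Just inside the fold threshold were CG15423, CG13360 and CG7968 with w1118 declines of 8.12, 8.24 and 8.39-fold, and just outside were CG5023, CG14302 and CG5246 with 7.99, 7.85 and 7.78-fold. For the clause on raised entries the smallest Nxt1 over w1118 ratio of the 3 stages decided. It was 1.39 for CG7968, 1.37 for CG3348 and 1.30 for CG32302, which stayed, and 1.54 for CG17145, 1.55 for CG14300 and 1.59 for CG34282, which were left out. The other 9 left out for that reason were CG9040, CG17325, CG9259, CG17826, CG8664, CG14258, CG6870, CG11891 and CG9297.

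Many of the genes lie close together by their listed loci. Distances were taken between listed locus spans, so genes at 1 shared locus counted as close whatever their own positions. CG33306 and CG7968, for instance, counted as a pair in a span of 63.1 kb. Of the 103 genes, 46 (44.7%) had another of them within 10 kb, in 19 groups, against 102 of the 2696 other CG entries with at least 10 FPKM (3.78%) that lay within 10 kb of any of the 103. The largest group holds CG17105, CG17107, CG7299, CG7296, CG7300 and CG6415 on arm 2L, between 10681047 and 10706190 (coordinates counted from 1 as in the deposited tables, their build not given in sources used here). Next comes a group of 4 on arm 3R, between 13243189 and 13247924, with CG33333, CG42834, CG42835 and CG14332. In it CG14332, CG33333 and CG42834 were called higher in Nxt1 than in w1118 stationary larvae, by 2.45-fold, 2.65-fold and 3.89-fold. CG33333 had 271, 234 and 4.51 FPKM in Nxt1 animals, against 367, 88.3 and 9.30 FPKM in w1118. CG42834 had 243, 236 and 4.22 FPKM in Nxt1 animals, against 138, 60.7 and 6.84 FPKM in w1118. In these Nxt1 animals both levels barely differed between wandering and stationary larvae, while in w1118 the stationary values were well below the wandering ones.

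In the 6-gene group CG17105 and CG7296 were called higher in Nxt1 stationary larvae. CG7296 had 54.6, 41.2 and 1.36 FPKM in Nxt1 animals, against 34.7, 9.46 and 3.05 FPKM in w1118. The other 4 were not called, and their Nxt1 levels were above those of w1118 in stationary larvae in value. Groups of 3 lay on arm 3L between 15007795 and 15058077 (CG13460, CG13461 and CG18649, 1 shared locus) and on arm 3R between 15432976 and 15441506 (CG17751, CG17752 and CG16727). CG16727 had 204, 104 and 12.1 FPKM in Nxt1 animals, against 158, 65.9 and 10.2 FPKM in w1118, and was called higher in stationary larvae. By arm, 23 genes lay on 2L, 14 on 2R, 22 on 3L, 36 on 3R and 8 on X (22.3%, 13.6%, 21.4%, 35.0% and 7.77%). Of CG entries off chromosome 4 with at least 10 FPKM in w1118 wandering larvae, these arms held 19.3%, 19.0%, 20.9%, 25.2% and 14.8%. Reads of neighbours whose loci overlap cannot be told apart in these values, and 36 of the 104 entries shared their locus with another entry.

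The gene models were short and simple. In the Ensembl annotation, matched by name, 39.4% of the 104 entries had a single-exon canonical transcript, against 13.3% of 2667 matched among the other CG entries with at least 10 FPKM. The median was 2 exons, against 3, and the median canonical transcript length was 920 bases, against 1586 bases. Tests of transcript usage covered few of the genes. Splicing within a start-site group was tested in 6, 2 and 1 of them in wandering larvae, stationary larvae and prepupae, promoter usage in 3, 1 and 0, and coding-sequence usage in 6, 3 and 1. CG15279, whose synonym names it as a nutrient amino acid transporter, was the only called case. Over all genes 2.69%, 5.88% and 9.78% of the splicing tests were called at the 3 stages, 4.59%, 8.43% and 10.2% of the promoter tests, and 1.93%, 6.0% and 7.47% of the coding-sequence tests. The authors' deposited table gave it a square root of the Jensen-Shannon divergence of 0.511 in wandering larvae (q = 0.0389). Its gene level was not called at any stage, with 25.2, 13.6 and 2.74 FPKM in Nxt1 animals, against 25.1, 8.80 and 1.80 FPKM in w1118.

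Genes with a proper name that passed the same w1118 thresholds were also often higher in Nxt1 stationary larvae. There were 105 such entries before the clause on raised entries, the most abundant being Sgs7, Lcp1, Sgs3, Lcp4, Sgs8, Sgs5, Lsp1alpha, Lsp1beta, Eig71Ee and Lcp2, which encode salivary glue, larval cuticle and larval serum proteins and a product of the 71E puff. In stationary larvae 48 of 92 tested were called higher in Nxt1 animals and 2 lower, and in prepupae 15 of 73 were called higher and 4 lower. With the clause applied, 94 entries were left, of which 39 of 82 tested were called higher and 2 lower in stationary larvae (47.6% higher, against 35.3% of the CG entries), and 8 of 63 higher and 4 lower in prepupae. Of all gene entries tested, 4.70% were called higher and 13.2% lower in stationary larvae, and 4.03% and 12.9% in prepupae. The named set also holds small RNA genes, such as snoRNA:Psi18S-176 and mir-4944, both listed at 0 in w1118 stationary larvae and prepupae. It holds Lcp65Ab2 in 2 entries. The difference between named and CG genes was not tested.

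Lists of tissue and pathway genes give the setting in which the genes were measured. Of 50 digestive enzyme entries, 24 of 46 tested were higher in Nxt1 stationary larvae and 2 lower, and their summed level was 11847 FPKM, against 6944 FPKM in w1118. In the muscle list 14 of 17 tested were higher there and none lower, with a sum of 2823 FPKM, against 1459 FPKM in w1118. In the testis list 24 of 35 tested were lower there and none higher, with a sum of 175 FPKM, against 1937 FPKM in w1118. Of the ecdysone response landmarks 2 of 18 tested were lower in Nxt1 stationary larvae and none higher, with a sum of 1448 FPKM, against 1813 FPKM in w1118. Salivary gland glue and 71E genes gave 4 higher and 4 lower of 11. The 4 higher were the glue genes Sgs1, Sgs3, Sgs5 and Sgs8, whose w1118 levels fell towards prepupae. The 4 lower were Eig71Ea, Eig71Eb, Eig71Ed and Eig71Eg, whose w1118 levels rose towards prepupae. Larval cuticle gave 4 higher of 10, fat body 1 higher and 1 lower of 8 and Malpighian tubule 2 higher of 8. Haemocytes gave 3 higher and 1 lower of 10 and neurons none of 8. Where a list had no call in a direction, the unadjusted Cuffdiff p of the authors' deposited table was under 0.05 for 1 higher ecdysone landmark and 1 lower cuticle gene, and for 0 genes of the other lists. The part that gut content, staging or tissue makeup plays in the stationary difference of the CG genes was not tested. Nxt1 itself had 9.28, 15.5 and 17.9 FPKM in Nxt1 animals, against 11.6, 11.5 and 10.6 FPKM in w1118. Its differences were not called in the authors' deposited table (q = 0.998, 0.788 and 0.480), its locus is shared by 2 entries, and the labels do not say what the allele lesions are.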

How the data were processed

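RNA of whole animals was sequenced as paired ends from ScriptSeq libraries, per the labels' protocols. Bowtie 1.1.1, Cufflinks and Cuffdiff are named in the submitters' processing notes, with the build and annotation not given in sources used here. The authors deposited 18 tables of tests between genotypes, 6 per stage. Their FPKM values are 1 per genotype and stage, pooled over replicates, per the file headers. The p-value, q-value and log2 fold change are deposited columns, and the test statistic and the usage divergence (square root of a Jensen-Shannon value) are deposited scores. No counts or replicate values were at hand.

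Entries were chosen from the FPKM with a pseudocount of 1. Standard errors are the size of a log2 fold change divided by that of its test statistic. The normal tail of that statistic returned the deposited p-value within 0.01 for all genes checked. These were 10668, 10948 and 10547 of the 10898, 11128 and 10780 tested at the 3 stages. Calls need status OK and q at most 0.05. The choice of entries was run on real values with planted declines, and the standard error formula on simulated statistics. Those runs check the code only, and the clause on raised entries was not exercised in them. Named genes are the 10 highest in w1118 wandering larvae, the extremes of the prepupal ratio (10 and 5) and of the Nxt1 decline (5 and 5), 3 on each side of every threshold, up to 4 per family and usage calls; others were named after their values were seen. Families were read from RefSeq symbols and synonyms. The genes and the 10 lists, which matched 200 symbols and missed 27, were chosen with earlier results of these data known. Python 3.11.15, pandas 2.3.3, numpy 2.4.6, scipy 1.17.1 and matplotlib 3.10.9 were used.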

Additional observations from a re-analysis of the deposited data

How the results depend on the processing

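Of 79 alternatives over 12 counts, 66 left the count within 1.5 times its value. The exceptions follow. The number of entries chosen was 191 at 4-fold and 49 at 16-fold, in place of 104. Those called higher in Nxt1 wandering larvae numbered 14, against 4 with at least 2-fold change, 2 by start-site groups and 25 with the raised entries kept. Those called lower there numbered 8, against 4 at q of 0.01, 5 with at least 2-fold change and 3 by start-site groups. Only 3 of those 14 and 3 of those 8 entries had a tested start-site group in wandering larvae. In stationary larvae start-site groups gave 5 higher and 1 lower, in place of 36 and 3. Only 47 of 112 start-site groups were tested there, and 6 of the 36 genes had a tested group. In prepupae 11 rather than 3 were higher with the raised entries kept, and 1 rather than 3 was lower at q of 0.01. The usage call was lost at q of 0.01, leaving 0. Keeping the raised entries was chosen after seeing the data. No paired analysis was possible because the deposited tables hold 1 pooled value per genotype and stage, which also left the fits without 1 replicate not run. Depth is unknown, and 34 of the 104 entries were not tested in prepupae.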
